A study of Mus musculus with 9 samples.

Results

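The 8 genes described here are a set tied to the entry of mouse spermatogonia into differentiation: Sohlh1, Sohlh2, Neurog3, Sox3, Dmrt1, Dmrtb1, Upp1 and Ppp1r1b. They were taken by symbol from the table of 23813 entries, where each stood on 1 entry, and all 8 were among the 11142 genes tested. The first 6 encode transcription factors. Upp1 encodes uridine phosphorylase and Ppp1r1b an inhibitor of protein phosphatase 1, so the name transcription factors does not cover these genes. RNA was sequenced from male germ cells of LT-11B6 mice, which carry an Id4-eGfp transgene on a C57BL/6 background, at postnatal day 6. There were 3 libraries of the ID4-EGFP+ cells in the top 1/3 of antibody staining for the surface tetraspanin TSPAN8 (TSPAN8-high), 3 of those in the bottom 1/3 (TSPAN8-low) and 3 of ID4-EGFP+ cells sorted without that split (all ID4-EGFP+). All groups share the reporter, the age and the EGFP gate, which Id4 regulatory sequence drives, so cells were selected for reporter signal in every group; the purity of the sorts was not measured here. Each group has 3 preparations, and the labels do not say whether animals were pooled or shared a litter. A p-value here therefore reflects only how far these preparations vary.

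Spermatogonia leave the stem cell state stepwise, through transit-amplifying progenitors, to differentiating cells that respond to retinoic acid and carry the receptor KIT. SOHLH1 and SOHLH2 are germ cell basic helix-loop-helix (bHLH) factors that can pair with each other and are needed for this step in mice. NEUROG3, another bHLH factor, and SOX3, a factor with an HMG box, mark progenitors. DMRT1 and DMRTB1 (also called DMRT6) have a DM domain, a zinc-containing DNA-binding fold. In mouse spermatogonia DMRT1 restrains Stra8 and promotes Sohlh1, and DMRTB1 acts later, as cells move from mitosis towards meiosis. 

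Promoter sequence is shown for the members that were lower in TSPAN8-high in at least 1 of the fits below and had a RefSeq window (build GRCm38.p6, later than the mm9 of the submitters' processing notes). Of the 8 members 5 had a window, namely Sohlh1, Sohlh2, Dmrtb1, Neurog3 and Upp1. The 250 bases before the start site are given, 5′ to 3′ on the gene's strand, with each CANNTG (the E-box, the motif that bHLH dimers bind) in capitals. They lie at chr2:25847249-25847498 (minus strand) for Sohlh1, chr3:55181794-55182043 (plus) for Sohlh2, chr10:62132840-62133089 (plus) for Neurog3 and chr4:107684231-107684480 (minus) for Dmrtb1, whose other listed start is not shown.
Sohlh1: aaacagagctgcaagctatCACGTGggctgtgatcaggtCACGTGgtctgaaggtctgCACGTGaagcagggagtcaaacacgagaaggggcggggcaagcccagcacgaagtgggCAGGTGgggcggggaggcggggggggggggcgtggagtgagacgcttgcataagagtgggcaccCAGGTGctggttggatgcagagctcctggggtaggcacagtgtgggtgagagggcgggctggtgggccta
Sohlh2: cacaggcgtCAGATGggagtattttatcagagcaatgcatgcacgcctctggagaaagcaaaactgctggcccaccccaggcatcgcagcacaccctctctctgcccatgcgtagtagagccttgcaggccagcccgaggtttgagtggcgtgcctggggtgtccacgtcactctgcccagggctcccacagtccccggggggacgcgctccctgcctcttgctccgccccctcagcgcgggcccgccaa
Neurog3: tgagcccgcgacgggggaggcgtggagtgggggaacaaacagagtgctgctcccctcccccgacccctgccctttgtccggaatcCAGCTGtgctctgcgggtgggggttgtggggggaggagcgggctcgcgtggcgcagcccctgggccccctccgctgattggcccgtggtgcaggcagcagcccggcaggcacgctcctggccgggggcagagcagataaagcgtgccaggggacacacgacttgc
Dmrtb1: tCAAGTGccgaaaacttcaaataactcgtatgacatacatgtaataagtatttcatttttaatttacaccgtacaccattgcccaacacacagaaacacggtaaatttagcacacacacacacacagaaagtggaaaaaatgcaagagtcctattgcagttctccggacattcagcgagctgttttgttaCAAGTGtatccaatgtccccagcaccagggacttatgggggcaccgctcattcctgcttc
The Sohlh1 window held 5 E-boxes, and at least 5 stood in 1.15% of the 32851 mouse windows of the same length. Of these 5, 3 were CACGTG, with first bases at -231, -211 and -192 from the start. CACGTG was counted after the sequence had been seen, and at least 3 copies stood in 0.0609% of windows, 20 in all. The Sohlh2 and Neurog3 windows held 1 E-box each and the Dmrtb1 window 2, which 66.2% and 31.8% of windows reached. At the other Dmrtb1 start, not shown, the window held 3, which 12.2% of windows reached. Both strands were read for all motifs. ACANTGT, the core of the DMRT1 motif, occurred once in the Sohlh1 window and in 6.47% of all windows, and it did not occur in the other 3 windows shown. The SOX core ACAAT, which overlaps ACANTGT where N is A or T, occurred in none of the 4, against 27.7% of windows. A match describes letters only, not binding.

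In each library 10734 to 11155 entries reached 1 FPKM, and Pearson's r across genes between replicates of a group was 0.981 to 0.991 on log2(FPKM + 1) values. FPKM scales fragments to transcript length and library size, so levels can be set side by side between genes only roughly. The annotation that gives the lengths is not stated, and absolute depth is unknown. The TSPAN8 split was visible in its own transcript. Tspan8 averaged 34.0 ± 8.41 FPKM in TSPAN8-high, 9.73 ± 2.71 in TSPAN8-low and 15.2 ± 1.39 in all ID4-EGFP+ (SD, n = 3 each). Id4, which was not used for that split, averaged 67.2 ± 7.17, 26.2 ± 8.14 and 35.6 ± 4.34 FPKM in the same groups. All groups share the EGFP gate that Id4 sequence drives. The split was made on TSPAN8 staining, so the Id4 difference does not measure how well the split separated the cells. Id4 is also among the stem cell genes counted below. All 9 germ cell markers were tested, with summed levels of 3579 to 4120 FPKM in TSPAN8-high, 3552 to 4172 in TSPAN8-low and 3487 to 3943 in all ID4-EGFP+. Between the fractions, as defined below, 0 of the 9 passed in limma, while with the replicate number as a block Zbtb16 (8.19 ± 0.238 FPKM in TSPAN8-high against 5.14 ± 0.723 in TSPAN8-low), Dppa4 (84.4 ± 8.51 against 53.3 ± 17.3) and Ddx4 (591 ± 58.4 against 404 ± 58.1) were higher and Uchl1 (586 ± 59.5 against 806 ± 65.1) lower in TSPAN8-high. The 12 Sertoli cell markers summed to 95.4, 105 and 237 FPKM in TSPAN8-high, against 13.0, 23.1 and 145 in TSPAN8-low and 21.0, 48.7 and 111 in all ID4-EGFP+ (replicates 1, 2 and 3). Within each number the TSPAN8-high sum was the larger. Of 6 tested Sertoli markers 0 passed, and 6 were higher in TSPAN8-high with the block, among them Rhox8 (11.2 ± 4.67 FPKM in TSPAN8-high against 4.98 ± 3.42 in TSPAN8-low), Cst9 (37.8 ± 15.6 against 16.1 ± 22.1), Clu (34.6 ± 22.6 against 12.5 ± 16.6) and Aard (19.2 ± 7.85 against 8.85 ± 7.82). The 6 untested ones (Sox9, Amh, Wt1, Gata4, Fshr and Gata1, named after their values were seen) averaged under 1 FPKM in each group; of these Amh did not overlap between the fractions (0.381 ± 0.295 FPKM in TSPAN8-high against 0.0471 ± 0.0533 in TSPAN8-low). Leukocyte markers (1 of 6 tested, Cd68) summed to 12.5 to 21.5 FPKM in TSPAN8-high, 5.13 to 12.7 in TSPAN8-low and 7.49 to 11.7 in all ID4-EGFP+, and Leydig, peritubular myoid and red blood cell markers to at most 7.63 FPKM in any library. Beside the marker counts with the block, 11.8% of all tested genes were called higher and 7.34% lower. The part of these markers in the results below was not tested.

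Levels of the members ran from about 1 FPKM to above 100 FPKM. In TSPAN8-high, mean FPKM ran from Dmrt1 (107) through Sohlh1 (85.7), Sohlh2 (61.6), Upp1 (42.5), Neurog3 (3.58), Sox3 (2.99) and Ppp1r1b (1.18) down to Dmrtb1 (0.718). In TSPAN8-low the order was Sohlh1 (139), Dmrt1 (129), Sohlh2 (83.4), Upp1 (44.2), Neurog3 (6.24), Sox3 (4.27), Dmrtb1 (3.03) and Ppp1r1b (0.994). All ID4-EGFP+ cells had this second order too, from Sohlh1 (132) to Dmrtb1 (2.18) and Ppp1r1b (1.34). Dmrt1, Sohlh1, Sohlh2 and Upp1 stood far above the other members in every library. The ranges of Neurog3 and Sox3 overlapped in TSPAN8-high and in all ID4-EGFP+, those of Sohlh1 and Dmrt1 in TSPAN8-low and in all ID4-EGFP+, and those of Dmrtb1 and Ppp1r1b in TSPAN8-high; the other neighbours in these orders did not overlap. Sohlh1 exceeded 85.4% of tested genes in TSPAN8-high and 89.8% in TSPAN8-low, and Dmrtb1 0.9% and 25.6%.

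**Figure D1:**
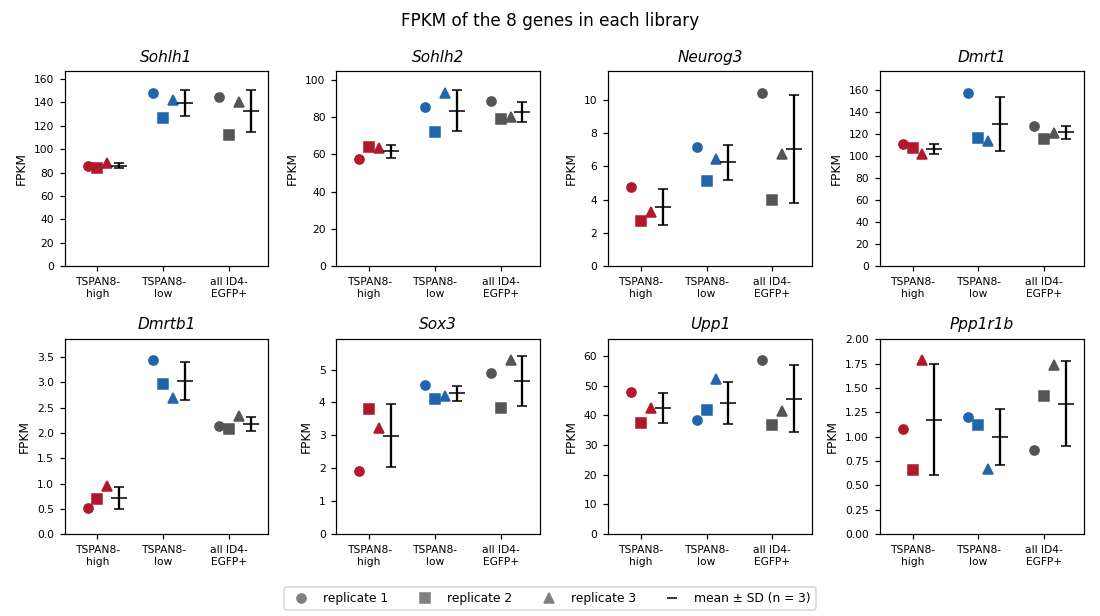
FPKM (y axis, linear from 0) of the 8 genes in each of the 9 libraries, by sort (x axis); marker shape gives the replicate number and the black bar the mean ± SD (n = 3). For Sohlh1, Sohlh2, Neurog3, Dmrt1, Dmrtb1 and Sox3 the 3 TSPAN8-high values lie below the 3 TSPAN8-low values, while for Upp1 and Ppp1r1b they overlap.

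The comparison of the fractions asked how ID4-EGFP+ cells with much surface TSPAN8 differ from those with little. Dmrtb1 and Sohlh1 fell in TSPAN8-high, and the other 6 members did not pass in limma at a Benjamini-Hochberg adjusted p under 0.05, the threshold used throughout. These 2 of 8 stand beside 2.15% of all tested genes called lower, and 0 members rose beside 3.41% called higher. The members were chosen with earlier results of these data known. Dmrtb1 was tested only through the groups where it is higher. Its part of this and the later member counts is therefore no support for a direction. The members' median log2 fold change was -0.43, against 0.05 over all tested genes. In 6 of the 8 members every TSPAN8-high value lay below every TSPAN8-low value, which held for 9.71% of tested genes, and an exact permutation test gave each of these p = 0.1, the smallest that 3 against 3 libraries allow. Libraries with the same number tended to deviate together (r of 0.26 to 0.48 across genes, other pairs -0.46 to 0.28). These ranges overlap and the labels name no shared source, so the pairing was read from these data. With this number as a block Sohlh2 and Neurog3 also fell, making 4 of 8, while 7.34% of all tested genes were then called lower and 11.8% higher. The split of calls over all genes, 380 higher and 239 lower, depended on the scaling, with 223 and 307 on the authors' normalized values, 255 and 360 with a common median and 250 and 300 after quantile normalization. In bulk samples, fewer cells that express a gene and less RNA per cell cannot be told apart.

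Dmrtb1, the DM-domain gene of differentiating spermatogonia, differed most. It stood at 0.510, 0.690 and 0.955 FPKM in TSPAN8-high, at 3.44, 2.96 and 2.70 in TSPAN8-low and at 2.14, 2.07 and 2.34 in all ID4-EGFP+. The 3 groups do not overlap, with all ID4-EGFP+ between the fractions. Mean FPKM in TSPAN8-high was 0.237 of that in TSPAN8-low, and within numbers 1, 2 and 3 the ratio was 0.148, 0.233 and 0.354. On log2(FPKM + 1) values, where the change of a low gene is understated, the fold change was -1.23 (SE 0.15, limma adjusted p = 0.00153), and with a pseudocount of 0.1 it was -1.97. Its unadjusted p ranked 14 among the 11142 genes. Dmrtb1 reached the minimum of 1 FPKM in 6 libraries, none of them TSPAN8-high, so it was tested through the groups where it is higher. The call held whichever of the 9 libraries was dropped (adjusted p at most 0.0103), and was lost when replicate 2 was dropped from all groups at once (0.0645).

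Dmrt1, the other DM-domain member, had 111, 107 and 102 FPKM in TSPAN8-high, against 158, 117 and 114 in TSPAN8-low and 128, 116 and 121 in all ID4-EGFP+. TSPAN8-high values were the lowest, and TSPAN8-low replicate 1 stood above the others. The log2 fold change between the fractions was -0.26 (95% interval -0.59 to 0.07, adjusted p = 0.340), and -0.11 without TSPAN8-low replicate 1 (adjusted p = 0.695). Dmrt1 is also known to be expressed in Sertoli cells, whose markers were higher in TSPAN8-high; their part in the Dmrt1 values was not tested. Set against each other within a library, Dmrt1 exceeded Dmrtb1 by 218, 155 and 107 times in TSPAN8-high, 45.9, 39.4 and 42.1 times in TSPAN8-low and 59.8, 55.9 and 51.7 times in all ID4-EGFP+. This ratio of FPKM did not overlap between the fractions (exact permutation test, p = 0.1), and was higher in every TSPAN8-high library. That follows from the Dmrt1 and Dmrtb1 values already given, with Dmrtb1 under 1 FPKM in TSPAN8-high, so it is no separate result.

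Sohlh1 had 85.3, 83.8 and 88.0 FPKM in TSPAN8-high, against 148, 127 and 142 in TSPAN8-low and 145, 112 and 140 in all ID4-EGFP+. The TSPAN8-high libraries were tightly grouped (SD 2.13) and below every other library. The log2 fold change between the fractions was -0.69 (SE 0.14, adjusted p = 0.0195 by limma), and the ratio within numbers 1, 2 and 3 was 0.576, 0.662 and 0.620. It no longer passed once TSPAN8-high replicate 2 (adjusted p = 0.0854), TSPAN8-high replicate 3 (0.0543) or TSPAN8-low replicate 1 (0.0551) was left out, nor without any 1 replicate number in all groups (0.0876 to 0.152). In the blocked fit it passed whichever library was dropped (adjusted p at most 0.0163).

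Its partner Sohlh2 had 57.5, 64.0 and 63.2 FPKM in TSPAN8-high, against 85.5, 71.7 and 93.1 in TSPAN8-low and 88.6, 78.8 and 80.0 in all ID4-EGFP+. Again all TSPAN8-high values lay below the others, with TSPAN8-low replicate 2 the nearest. The log2 fold change was -0.43 (95% interval -0.74 to -0.12 before adjustment, adjusted p = 0.104), and it passed with the replicate block (adjusted p = 0.0277) and with a common median (0.0459). The blocked fit did not call it once TSPAN8-high replicate 1 (adjusted p = 0.147), TSPAN8-high replicate 3 (0.101), TSPAN8-low replicate 1 (0.0517) or TSPAN8-low replicate 3 (0.121) was dropped. Sohlh1 exceeded Sohlh2 by 1.48, 1.31 and 1.39 times in TSPAN8-high, 1.73, 1.77 and 1.52 times in TSPAN8-low and 1.63, 1.42 and 1.75 times in all ID4-EGFP+, so the ratio was lower in all TSPAN8-high libraries than in all TSPAN8-low libraries (exact permutation test, p = 0.1). Sohlh1 over Dmrt1 was 0.769, 0.782 and 0.862 in TSPAN8-high, 0.939, 1.09 and 1.25 in TSPAN8-low and 1.13, 0.969 and 1.16 in all ID4-EGFP+, also without overlap between the fractions (exact p = 0.1). The FPKM of Sohlh1 was thus below that of Dmrt1 in all 3 TSPAN8-high libraries, and above it in 2 of 3 libraries in each of the other groups. The ratios of Sohlh1 to Sohlh2 and to Dmrt1 follow from the values already given, so they are no separate results. Sohlh1 over Neurog3 and Sox3 over Neurog3 overlapped between the fractions (exact permutation test, p = 0.6 each). Sohlh1 over Id4 and Dmrt1 over Id4 did not overlap (exact p = 0.1 each), with Id4 higher in TSPAN8-high. The share of all gene pairs without overlap was not computed.

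**Figure D2:**
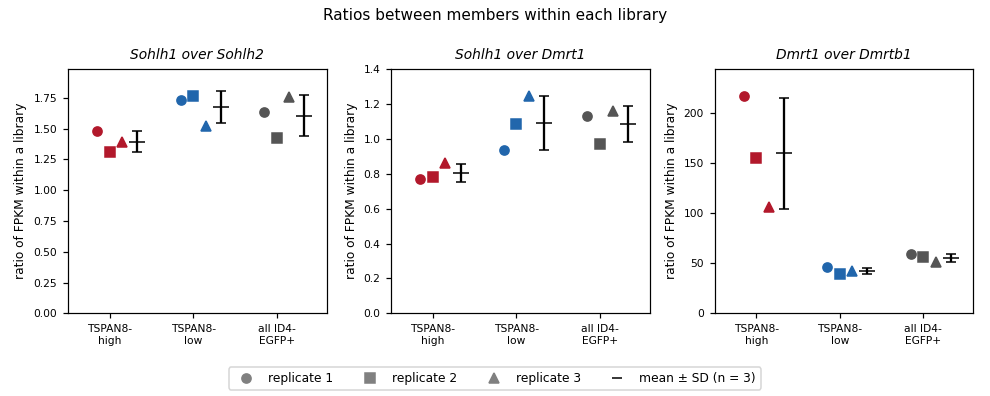
Ratio of FPKM between members within each library (y axes, linear from 0), by sort (x axis); shapes mark replicate numbers and black bars the mean ± SD (n = 3). Sohlh1 over Sohlh2 and Sohlh1 over Dmrt1 are lower, and Dmrt1 over Dmrtb1 higher, in all 3 TSPAN8-high libraries than in all 3 TSPAN8-low libraries. Sohlh1 over Neurog3 and Sox3 over Neurog3, not shown, overlap between the fractions.

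Neurog3, the bHLH gene of progenitors, had 4.77, 2.70 and 3.26 FPKM in TSPAN8-high, against 7.16, 5.12 and 6.44 in TSPAN8-low and 10.4, 3.98 and 6.71 in all ID4-EGFP+. Replicate 1 was the highest of each group, and the fractions did not overlap, while all ID4-EGFP+ reached into the TSPAN8-high range. The log2 fold change between the fractions was -0.68 (SE 0.27, adjusted p = 0.165), and with the replicate block the SE was 0.15 and the adjusted p 0.0111. Within numbers 1, 2 and 3 the ratio was 0.666, 0.528 and 0.506. The blocked fit did not call it once TSPAN8-high replicate 3 (adjusted p = 0.0597), TSPAN8-low replicate 2 (0.0553) or TSPAN8-low replicate 3 (0.0519) was dropped.

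Sox3 had 1.93, 3.79 and 3.24 FPKM in TSPAN8-high, against 4.53, 4.10 and 4.20 in TSPAN8-low and 4.89, 3.82 and 5.28 in all ID4-EGFP+. TSPAN8-high replicate 1 was the lowest library and TSPAN8-high replicate 2 lay just under the TSPAN8-low range. The log2 fold change was -0.43 (95% interval -0.84 to -0.02 before adjustment), with an adjusted p of 0.202, or 0.108 with the block. In the blocked fit it passed when TSPAN8-high replicate 2 was dropped (0.0424). Within numbers 1, 2 and 3 the ratio was 0.427, 0.925 and 0.772, so all 3 pairs were lower in TSPAN8-high and replicate 1 lay apart from the others. Without TSPAN8-high replicate 1 the log2 fold change was -0.23 (adjusted p = 0.439).

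The 2 members that encode no transcription factor passed in no comparison, and their fractions overlapped. Upp1, for the enzyme that cleaves uridine, had 47.7, 37.5 and 42.3 FPKM in TSPAN8-high, against 38.5, 41.8 and 52.2 in TSPAN8-low and 58.5, 36.8 and 41.6 in all ID4-EGFP+. Its log2 fold change between the fractions was -0.05 (95% interval -0.46 to 0.36, adjusted p = 0.899). Ppp1r1b was near the detection minimum in every group, at 1.08, 0.661 and 1.78 FPKM in TSPAN8-high, against 1.20, 1.12 and 0.665 in TSPAN8-low and 0.869, 1.41 and 1.74 in all ID4-EGFP+, and differed by 0.10 (95% interval -0.35 to 0.56, adjusted p = 0.808). For both genes the values overlapped fully and the direction changed with the library left out. The Upp1 interval still reaches the size estimated for Sohlh2.

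**Figure D3:**
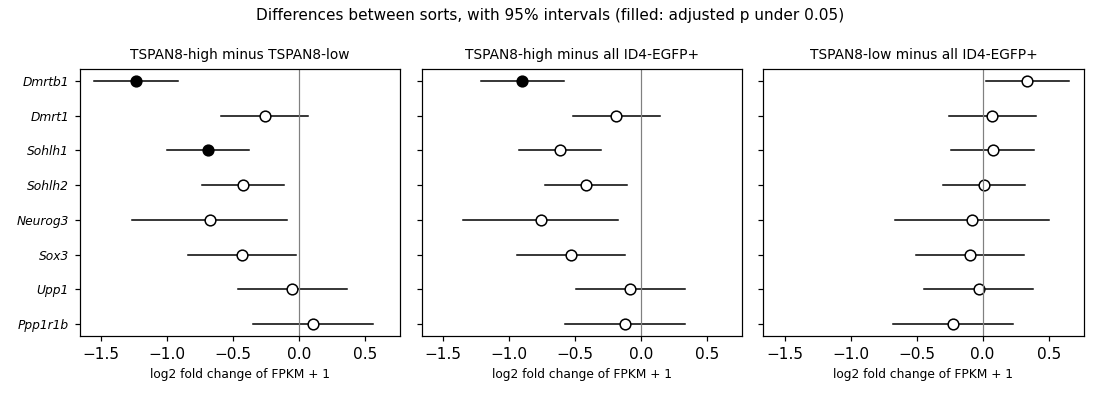
Log2 fold change of FPKM + 1 (x axes) with 95% intervals for each member (rows) in the 3 comparisons; filled points passed at an adjusted p under 0.05. Dmrtb1 (-1.23) and Sohlh1 (-0.69) passed between the fractions, Dmrtb1 (-0.90) alone passed for TSPAN8-high minus all ID4-EGFP+, and no member passed for TSPAN8-low minus all ID4-EGFP+.

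Each fraction was also set against the unsplit sort; these comparisons share the all ID4-EGFP+ libraries with each other and 1 fraction with the comparison above. In TSPAN8-high minus all ID4-EGFP+, Dmrtb1 fell (log2 fold change -0.90, SE 0.15, limma adjusted p = 0.0448), 1 of 8 members beside 0.117% of tested genes called lower. Dmrtb1 was tested here too only through the groups where it is higher, so its part of the counts is no support for a direction. It did not pass without the filter on low values (limma adjusted p = 0.159) or on the authors' normalized values (0.0522). Sohlh1 had -0.61 (adjusted p = 0.0875, 0.00956 with the block), Neurog3 -0.76 (0.343, 0.0207 with the block), Sox3 -0.53 (0.343) and Sohlh2 -0.42 (0.319). The Neurog3 estimate was -0.46 without all ID4-EGFP+ replicate 1, and that of Sox3 -0.32 without TSPAN8-high replicate 1. With the block, 3 of 8 members fell beside 1.86% of tested genes. The 3 values of TSPAN8-high lay below those of all ID4-EGFP+ for 5 members, all but Neurog3, Upp1 and Ppp1r1b, beside 8.34% of tested genes. The Dmrtb1 call was lost without 7 of the 9 libraries in turn, with adjusted p up to 0.207: number 1 or 2 of TSPAN8-high, number 2 or 3 of TSPAN8-low, or any all ID4-EGFP+ library.

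In TSPAN8-low minus all ID4-EGFP+, 0 of 8 members passed by limma, as did 0 of the 11142 tested genes (0%), of which 910 were under 0.05 before adjustment; the blocked fit called 5 genes (0.0449%), with 0 members among them. Dmrtb1 alone had TSPAN8-low values all above those of all ID4-EGFP+ (log2 fold change 0.34, 95% interval 0.02 to 0.65 before adjustment, adjusted p = 0.600), beside 3.44% of tested genes. The estimates of Sohlh1 (0.07), Sohlh2 (0.01), Dmrt1 (0.07), Neurog3 (-0.08) and Sox3 (-0.09) lay near 0, with 95% intervals that reach 0.67 in size for Neurog3 and up to 0.51 for the other 4. For Sohlh1, Sohlh2, Dmrt1, Neurog3 and Sox3, mean FPKM in all ID4-EGFP+ was closer to TSPAN8-low than to TSPAN8-high.

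Relatives of the members in the 3 factor families did not share 1 direction. Of a list of 30 other bHLH genes, which is not the whole family, 9 were tested. Figla, known in oocytes as an activator of zona pellucida genes, fell (15.5 ± 1.27 FPKM in TSPAN8-high against 26.9 ± 1.84 in TSPAN8-low, log2 fold change -0.76, adjusted p = 0.0184), and so did Atoh7, known from retinal ganglion cells (2.57 ± 0.661 against 5.26 ± 0.498, -0.82, adjusted p = 0.0340), with 0 higher. Twist1 (0.33, adjusted p = 0.289) and Ascl2 (-0.31, adjusted p = 0.360) did not pass. The count of 2 of 9 called lower stands beside 2.15% of all tested genes. The list's median log2 fold change was -0.04, against 0.05 over all tested genes. Figla did not pass once TSPAN8-high replicate 2, TSPAN8-high replicate 3 or TSPAN8-low replicate 1 was dropped (adjusted p at most 0.0809), nor Atoh7 when any fraction library other than TSPAN8-high replicate 3 was (at most 0.113). 

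DMRT genes other than the members moved in opposite directions. Of 9 others, 7 stood on 1 entry and 5 were tested. Dmrt2 rose (2.88 ± 0.486 FPKM in TSPAN8-high against 0.895 ± 0.691 in TSPAN8-low, log2 fold change 1.10, adjusted p = 0.0303) and Dmrtc1b fell (0.888 ± 0.328 against 3.46 ± 0.955, -1.24, adjusted p = 0.0103). Dmrtc1b has near-identical copies between which reads can be split, so its level is uncertain. Dmrt3 stood at 4.63 ± 0.564 FPKM in TSPAN8-high against 2.51 ± 0.971 in TSPAN8-low (0.71, adjusted p = 0.0582) and rose with the block (0.00865), and Dmrtc1a had -0.39 (adjusted p = 0.302). Of the 5, 1 was called higher and 1 lower, beside 3.41% and 2.15% of all tested genes. The median of the 5 was 0.26, against 0.05 over all tested genes. Dmrt2 missed the threshold when the same libraries as for Figla were dropped (adjusted p at most 0.110) and under 1 of the 3 other scalings, and neither Dmrt2 nor Dmrtb1 changed sign under these scalings.

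Of 19 other SOX genes 6 were tested, and Sox18, known from endothelium, rose (5.47 ± 0.761 FPKM in TSPAN8-high against 2.13 ± 0.676 in TSPAN8-low, log2 fold change 1.06, adjusted p = 0.0278), with 0 lower. Endothelial markers were low in all groups, 0 of 5 tested, with summed levels of 1.24 to 1.70 FPKM in TSPAN8-high, 0.855 to 1.24 in TSPAN8-low and 1.06 to 1.32 in all ID4-EGFP+, and their part was not tested. Sox13 had 0.60 (adjusted p = 0.0765, 0.0309 with the block), Sox4 0.24 and Sox11 0.14. Sox3 had -0.43, against a median of 0.19 over these 6. Of the 6, 1 was called higher, beside 3.41% of all tested genes. Sox18 missed the threshold when any fraction library other than TSPAN8-low replicate 3 was dropped (adjusted p at most 0.0914).

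**Figure D4:**
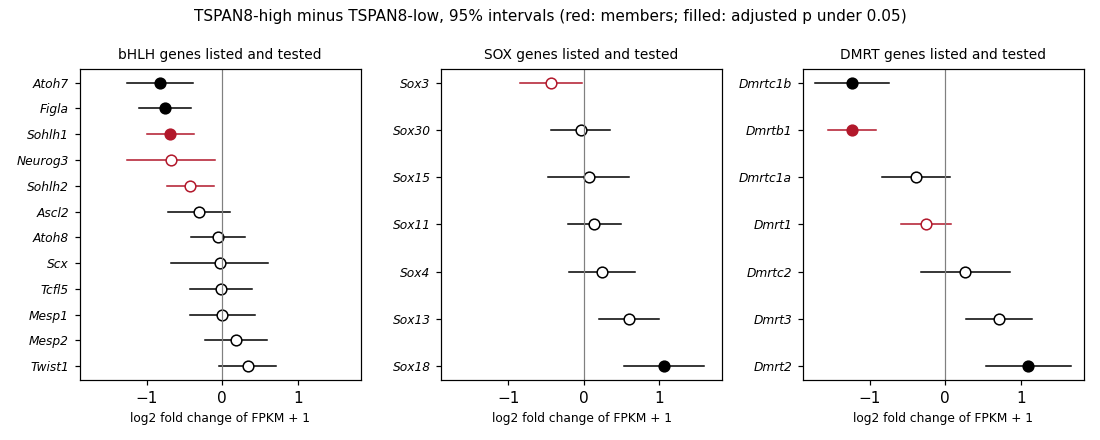
Log2 fold change of FPKM + 1, TSPAN8-high minus TSPAN8-low (x axes), with 95% intervals for the members (red) and the tested genes of the bHLH, SOX and DMRT lists (rows), of which the bHLH list is not the whole family; filled points passed at an adjusted p under 0.05. Sohlh1, Figla and Atoh7 passed on the lower side of the bHLH panel, Sox18 on the higher side of the SOX panel, and the DMRT panel has Dmrtb1 and Dmrtc1b lower and Dmrt2 higher.

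Genes of the same step outside these families were counted on lists chosen with earlier results known. Of 9 tested differentiating genes 5 fell and 0 rose, beside 2.15% of all tested genes called lower, with a median log2 fold change of -0.67 against 0.05 over all tested genes. Prdm9, which did not pass (named after its values were seen), reached 1 FPKM only in TSPAN8-low and all ID4-EGFP+ libraries. It was tested only through the groups where it is higher, so its part of the count and median is no support for a direction. Kit, for the stem cell factor receptor, had 1.79 ± 0.293 FPKM in TSPAN8-high against 6.35 ± 1.67 in TSPAN8-low (-1.38), and Stra8, the retinoic acid-induced gene that DMRT1 restrains, 90.9 ± 13.7 against 187 ± 13.9 (-1.04). Rhox10, a homeobox gene (-0.69, adjusted p = 0.0218), Sycp3, of the synaptonemal complex (-0.94, 0.0400), and Dnmt3b, for a DNA methyltransferase (-0.67, 0.0458, named after its value was seen), missed the threshold without 4, 5 and 8 of the 9 libraries in turn: Rhox10 when number 2 or 3 of either fraction was dropped, Sycp3 when number 2 or 3 of TSPAN8-high, 1 or 2 of TSPAN8-low or 3 of all ID4-EGFP+ was, and Dnmt3b for any library but TSPAN8-low replicate 3. Their adjusted p then reached 0.142 at most, and Sycp3 also missed the threshold under 2 of the 3 other scalings. Of 7 tested progenitor genes, Crabp1 fell (144 ± 18.7 FPKM in TSPAN8-high against 454 ± 24.4 in TSPAN8-low), 0 rose and 6 did not pass, with a median of 0.12. Sall1 rose with the block (0.60, adjusted p = 0.0529, 0.0138 with it), and Rarg (-0.26) and Lin28a (0.22) passed in neither fit. Rarg reached 1 FPKM in no TSPAN8-high library, so it too was tested only through the groups where it is higher. Its direction and its part of the count and median are therefore no support. Of 10 tested stem cell genes 10 passed as higher, beside 3.41% of all tested genes, with a median log2 fold change of 1.21 against 0.05. Foxc2 (1.32), T (1.23), Etv5 (1.21) and Gfra1 (1.35) had the smallest p. Lhx1 (0.96, named after its value was seen) passed narrowly (limma adjusted p = 0.0440), and its call with libraries left out is not given. T and Eomes (the second named after its values were seen) reached 1 FPKM in 4 libraries each, all 3 of TSPAN8-high, 1 of all ID4-EGFP+ and 0 of TSPAN8-low, so they were tested only through the groups where they are higher, and their part of the count is no support for a direction. Sertoli markers ran higher beside all these lists, as given above.

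Pathway genes around the enzyme Upp1 and the phosphatase inhibitor Ppp1r1b were counted in the same way. Of 8 tested genes of pyrimidine salvage and synthesis, Tk2, for mitochondrial thymidine kinase, rose (8.90 ± 1.43 FPKM in TSPAN8-high against 5.38 ± 0.647 in TSPAN8-low, log2 fold change 0.63, adjusted p = 0.0367), and 0 fell. Tk2 passed under 0 of the 3 other scalings, and missed the threshold when any TSPAN8-high library, number 1 or 2 of TSPAN8-low or number 3 of all ID4-EGFP+ was dropped (adjusted p at most 0.140). Uck2, for uridine-cytidine kinase, had 55.8 ± 5.23 FPKM in TSPAN8-high against 76.2 ± 2.99 in TSPAN8-low (-0.44, adjusted p = 0.0723) and fell with the block (0.0177). Umps (0.28) and Uckl1 (-0.26) did not pass. The count of 1 of 8 called higher stands beside 3.41% of all tested genes. Of 9 tested genes for protein phosphatase 1, protein kinase A and related enzymes, 0 passed by limma. With the block 2 rose, beside 11.8% of all tested genes. They were Ppp1cb (0.70, limma adjusted p = 0.0644, 0.00425 with the block) and Prkar1a (0.48, 0.125 and 0.0102). Ppp3ca (0.23) and Prkacb (-0.34) passed in neither fit.

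The genes whose log2(FPKM + 1) over the 9 libraries was most like that of each member are given as a description; the libraries share their sort and scaling. For Dmrtb1 they were Phlda3, Stra8 and Vegfb (Pearson's r of 0.987, 0.985 and 0.983, n = 9), with log2 fold changes between the fractions of -1.38, -1.04 and -1.38. Ppp1r14b, Ctdspl and Anxa4 were most like Sohlh1 (0.983, 0.978 and 0.975), and Ppt2, Slc25a33 and Tango2 most like Sohlh2 (0.989, 0.969 and 0.967). Neurog3 was followed by C330006A16Rik (0.979), Sox3 by Fahd2a (0.946), Dmrt1 by Prkar2b (0.964), Upp1 by Pddc1 (0.935) and Ppp1r1b by Yap1 (0.886). Among the members themselves, Sohlh1 had r of 0.93 with Dmrtb1, 0.92 with Sohlh2, 0.85 with Neurog3, 0.78 with Sox3 and 0.72 with Dmrt1, against 0.31 with Upp1 and -0.04 with Ppp1r1b (n = 9).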

How the data were processed

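The authors deposited FPKM values per library, made with Cufflinks after TopHat2 2.0.12 and Bowtie2 2.2.3.0 on build mm9, per the submitters' processing notes; the Cufflinks version is not stated, and neither is the annotation. Per the labels' protocols, cDNA came from the SMART-Seq v4 kit, which does not mark strand, so antisense reads were not separated. The authors' deposited table of normalized values (signal) served as an alternative, and its log10 form was not used. Entries of the 262 symbols listed more than once (768 entries) were left out. Genes with at least 1 FPKM in at least 3 of 9 libraries were tested with limma 3.58.1 in R 4.3.3 (eBayes with trend, two-sided, 1 fit over 3 groups) on log2(FPKM + 1), with Benjamini-Hochberg adjustment over all tested genes; intervals are 95% and unadjusted. Tables and plots used Python 3.11.15 and matplotlib 3.10.9. Motifs were counted on RefSeq windows.

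Named genes were all members, Tspan8 and Id4, up to 4 tested genes of each list with the smallest p between the fractions, and the 3 genes most like each member. Exceptions are the untested Sertoli markers, Dnmt3b, Prdm9, Eomes and Lhx1, which were named after their values were seen. The members and lists were chosen with earlier results of these data known. Same-numbered libraries of different groups deviated together (9 pairs, r of 0.26 to 0.48 across genes; other pairs -0.46 to 0.28), which met the criterion for pairing (every pair over 0.1) although the labels name no shared source; a fit with the number as a block was run. Other alternatives were another pseudocount, no filter, other scalings, left-out libraries or numbers, and fits on the compared groups only.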

Additional observations from a re-analysis of the deposited data

How the results depend on the processing

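Dmrtb1 and Sohlh1 were lower in TSPAN8-high than in TSPAN8-low under 19 of 19 alternatives (blocked fits with a library left out or another scaling, chosen after seeing the data, not counted), and passed in 18 and 13 of them. The counts of genes depended on the setting. Between the fractions 239 genes were lower and 380 higher; the counts were 108 and 185 without a filter, 818 and 1313 with the replicate block, 307 and 223 with the authors' normalized values, 360 and 255 with a common median and 300 and 250 with quantile normalization. With single libraries or numbers left out they ran from 7 to 253 lower and 3 to 381 higher. For TSPAN8-high minus all ID4-EGFP+ (13 lower, 3 higher) they were 0 and 0 without a filter, 207 and 137 with the block, 6 and 1 with the authors' values, 10 and 1 with a common median and 20 and 7 in the fit of those groups alone, and 0 to 84 and 0 to 27 with libraries left out. For TSPAN8-low minus all ID4-EGFP+ (0 and 0) the block gave 4 lower and 1 higher, and leaving out libraries 0 lower and 0 to 1 higher. The cause of these moves was not tested.

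Between the fractions, Sohlh2 passed with the block (-0.43) and a common median (-0.52). With the block and the authors' values, a common median or quantile normalization, settings chosen after seeing the data, Sohlh2 had -0.43, -0.52 and -0.43, Neurog3 -0.77, -0.76 and -0.76 (-0.68 with the block alone), and Dmrt1 passed with the common median (-0.36, adjusted p = 0.0482). Against all ID4-EGFP+, the block brought Sohlh1 (-0.61) and Neurog3 (-0.76) past the threshold, and Dmrtb1 lost it without a filter (-0.90) and with the authors' values (-0.88). With libraries left out, blocked fits included, the log2 fold change between the fractions lay from -0.76 to -0.63 for Sohlh1, -0.56 to -0.34 for Sohlh2, -0.86 to -0.54 for Neurog3, -0.65 to -0.19 for Sox3, -1.39 to -1.07 for Dmrtb1, -0.28 to 0.10 for Upp1 and -0.22 to 0.33 for Ppp1r1b. For TSPAN8-high minus all ID4-EGFP+ it lay from -1.06 to -0.46 for Neurog3, -0.79 to -0.29 for Sox3, -0.99 to -0.81 for Dmrtb1, -0.22 to 0.11 for Upp1 and -0.31 to 0.09 for Ppp1r1b. For TSPAN8-low minus all ID4-EGFP+, where no member passed, signs turned for Sohlh1 (-0.040 to 0.14), Sohlh2 (-0.093 to 0.11), Neurog3 (-0.38 to 0.21), Dmrt1 (-0.076 to 0.16), Upp1 (-0.21 to 0.25) and Ppp1r1b (-0.45 to 0.024) with libraries left out, and with the authors' values for Neurog3 (0.033), Sox3 (0.021) and Upp1 (0.027), with a common median for Neurog3 (0.0050) and Upp1 (0.067), and with quantile normalization for Upp1 (0.0076). The replicate block changed no other member call than those given. Depth is unknown, so the precision of Ppp1r1b and Dmrtb1 in TSPAN8-high, near 1 FPKM or below, cannot be stated from counts.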
